A study of Mus musculus with 115 samples.

Results

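The nuclear receptor motifs of the unphased motif screen are 5 constructs, ESRRB, NR5A2, RARA, RARA::RXRA and RXRA::VDR, picked by name from the 122 constructs of the class, of which 121 carry a motif. The double colon joins the partners of a heterodimer motif. Each construct sat at a recombinase-mediated cassette exchange site in cells labelled as 129S6/SvEvTac mouse embryonic stem cells, and was measured by amplicon NOMe-seq. In this assay a GpC methyltransferase marks open DNA in nuclei, so the methylation of cytosines in GCH context (GC followed by A, C or T) rises with accessibility. The class held 18 pools with 2 libraries each, 36 libraries in all. ESRRB lay in pool 5, NR5A2 and RARA::RXRA in pool 9, and RARA and RXRA::VDR in pool 13. The labels name no ligand or other treatment for these libraries, and the files hold no expression values, so neither the labelled cell type nor the presence of the receptors was checked. Nothing in the labels makes the replicates separate cultures. P-values therefore measure the spread between libraries, which may be technical.

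Nuclear receptors share a DNA-binding domain with a pair of zinc fingers that reads variants of the hexamer AGGTCA. ESRRB, an orphan receptor of the naive pluripotency network, and NR5A2, which also acts in early embryos and can support Oct4 expression, bind a single hexamer with an upstream extension, mostly as monomers. RARA, the retinoic acid receptor alpha, binds paired hexamers together with RXRA, the shared partner of many receptors. VDR, the vitamin D receptor, also pairs with RXRA. Without ligand, RARA can hold corepressors on DNA. A bound factor can protect cytosines under its footprint from the enzyme, while an opened nucleosome raises methylation beside the motif.

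Each of these 5 constructs carried 16 or 17 GCH sites. The files list 9 common sites upstream for every construct of the class, at positions 8 to 101 of the amplicon, though values in both libraries were present for 120 constructs at position 8 and 121 at position 22. All but 1 construct shared 5 sites downstream, at 164 to 243. Between them lay the stretch called the motif window here, from 26 to 53 bp past position 101, in which constructs hold different sites. The place of each motif in the amplicon was not known, so a window site need not lie under a motif. Window sites are written as that distance, so that +31 lies 31 bp past position 101. The flank was the mean of positions 101, 164 and 187, the sites within 40 bp of the window. Levels are percent methylation, taken from fractions deposited without read counts, so depth is unknown. The median construct of a library lay between 35.7% and 57.7% over the class. In pool 9 it was 37.1% in replicate 1 and 43.2% in replicate 2, below both libraries of the construct without a motif (47.2% and 48.9%). The references were the median construct of the same pool in the same library, the construct without a motif, and the partner whose name ends in "_r" (left undefined by the labels). Differences were tested with limma on log2 ratios of methylated to unmethylated fraction over the whole class, with Benjamini-Hochberg adjusted p.

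The ESRRB construct had a less methylated window than its pool, than the construct without a motif and than its partner. Its 2 window sites averaged 34.6% in replicate 1 and 34.5% in replicate 2, or 34.5% ± 0.0563 (SD, n = 2). The median construct of pool 5 was at 47.6% and 43.9% in the same libraries. ESRRB was therefore lower in both libraries, with a difference of −11.2 ± 2.57 percentage points (SD, n = 2). On the log2 scale the difference was −0.66 ± 0.11 (SE; limma adjusted p = 0.00273). Of 120 constructs tested this way, 26.7% were called, 17.5% lower and 9.17% higher, and 1 of the 5 nuclear receptor constructs was called, ESRRB, as lower. It had the 13th lowest of the 120 differences. Within pool 5 the ESRRB window stood beside that of the tumour suppressor motif TRP53 at 34.5% (41.8% and 27.2%) and that of the homeodomain motif TGIF1 at 36.4%, and the other constructs lay between 45.6% and 49.9%. Levels in this comparison come from sites at different positions. With the window narrowed to +31 to +48, which keeps both ESRRB sites, the difference was −0.59 (log2) and the call was lost (limma adjusted p = 0.0704). Against the class at the same positions ESRRB was lower, at −0.54 (log2; limma adjusted p = 0.00310).

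At like positions the 2 sites that make up the ESRRB window ranked low. These are the values of the window mean itself, set beside constructs of all pools, and not separate support. At +31 ESRRB was at 38.4% and 37.6%, the 4th lowest of 30 constructs with a site there, whose median was 47.7%. At +46 it was at 30.7% and 31.4%, the 5th lowest of 47, whose median was 39.6%. Past the window ESRRB was at 29.3% and 29.2% at position 164 and 30.4% and 29.5% at position 187. The pool medians at position 164 were 39.2% and 33.5%, and at position 187 they were 40.03% and 33.72%, above ESRRB in both libraries, but in the whole class ESRRB ranked 39th and 42nd lowest of 121 at these sites. By position 197 ESRRB was back among its pool, at 35.7% and 36.0% against medians of 40.4% and 34.8%, below in replicate 1 and above in replicate 2. Upstream of the window the libraries disagreed. Over the 9 upstream sites ESRRB averaged 56.8% in replicate 1, above the pool median of 52.3%, and 48.3% in replicate 2, below the pool median of 50.8%.

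The ESRRB flank was 38.4% and 35.9%, or 37.2% ± 1.80 (SD, n = 2), against pool medians of 46.2% and 39.7%. The difference of −5.77 ± 2.77 percentage points (SD, n = 2) did not pass (limma adjusted p = 0.136). In this comparison 7.5% of 120 flanks were called, 3.33% higher and 4.17% lower, and 0 of the 5 nuclear receptor flanks were among them. When ESRRB itself was left out of the pool median, its flank passed as lower (limma adjusted p = 0.0332), and it also passed against the pool mean (limma adjusted p = 0.00792). Over the whole amplicon ESRRB was at 44.1% ± 3.67 (SD, n = 2), at −1.33 ± 0.760 percentage points from the pool median, and did not pass (limma adjusted p = 0.454). Amplicon calls made up 11.7% of the 120 constructs.

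Against the construct without a motif, whose window was at 42.4% and 41.7%, ESRRB was lower, with a difference of −7.53 percentage points (log2 −0.45 ± 0.08, SE; limma adjusted p = 0.0114). This comparison called 48.8% of 121 windows, 25.6% lower and 23.1% higher, and 2 of the 5 members, ESRRB and NR5A2, both lower. The construct without a motif was alone in its pool, so construct and pool cannot be told apart, and its 2 libraries served every comparison. With 1 of its libraries left out the ESRRB call was lost (limma adjusted p = 0.270 without replicate 1 and 0.238 without replicate 2), the lone library being assumed to vary like the constructs. The ESRRB flank differed by −4.74 percentage points from the 41.9% without a motif and did not pass (limma adjusted p = 0.135), in a comparison that called 38% of flanks.

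ESRRB_r, the partner of ESRRB, had a window level of 47.2% and 52.6%, above ESRRB in both libraries with no overlap. The mean of 49.9% ± 3.83 (SD, n = 2) was above that of ESRRB, and ESRRB minus partner was −15.4 percentage points (log2 −0.90 ± 0.23, SE; limma adjusted p = 0.00336). Among 14 motifs with a partner, 42.9% of windows were called, 35.7% lower and 7.14% higher. The pair shared +31 and +46. At +31 ESRRB_r was at 46.9% and 56.6%, and at +46 at 45.7% and 49.4%, against 38.4% and 37.6% and then 30.7% and 31.4% for ESRRB. Over these shared sites alone ESRRB was at 34.5% ± 0.0563 and ESRRB_r at 49.7% ± 4.74 (SD, n = 2 each; limma adjusted p = 0.00303 over 14 pairs). ESRRB_r lay in pool 6, so this is also a comparison of pools. With each construct first set against its own pool median, the window difference was −0.81 (log2; limma adjusted p = 0.0152). ESRRB_r was itself called higher than the construct without a motif, by 7.85 percentage points (limma adjusted p = 0.0352). An exact permutation test on the 4 libraries gave p = 0.333, the smallest that 2 against 2 allow.

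The gap between ESRRB and ESRRB_r extended downstream. At position 164 ESRRB_r was at 38.1% and 42.7%, and at position 187 at 39.3% and 39.7%, above both ESRRB libraries at each site. At position 101, upstream of the window, ESRRB was higher in replicate 1 (55.6% against 50.8%) and lower in replicate 2 (49.0% against 60.3%). The flank difference of −8.00 percentage points did not pass (limma adjusted p = 0.138), in a comparison that called 21.4% of 14 pairs, all higher. It passed as lower for ESRRB with each flank set against its own pool median (limma adjusted p = 0.0323). Without ESRRB replicate 1 or replicate 2 the window call against the partner was lost (limma adjusted p = 0.102 and 0.101), as it was without ESRRB_r replicate 2 (limma adjusted p = 0.0875), though the difference stayed between −1.05 and −0.75 (log2) in all 4 fits that leave out a library.

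NR5A2 had the lowest window of the 5 constructs, at 28.4% in replicate 1 and 31.2% in replicate 2, or 29.8% ± 1.98 (SD, n = 2), from 3 sites. Both libraries lay below the 42.4% and 41.7% of the construct without a motif. The difference of −12.3 percentage points passed the test as lower (log2 −0.76 ± 0.10, SE; limma adjusted p = 0.00522). Within pool 9 the NR5A2 window was the 2nd lowest of 8, beside that of HSF2 at 29.1% (26.9% and 31.3%). Relative to pool 9, whose median windows were 32.1% and 36.9%, NR5A2 was lower in both libraries, at −4.75 ± 1.39 percentage points (SD, n = 2), and did not pass (log2 −0.31 ± 0.11, SE; limma adjusted p = 0.0625). It passed against the pool mean (limma adjusted p = 0.0118) and with robust moderation of the spread (limma adjusted p = 0.0460). Set against the class at the same positions, which does not remove the low level of pool 9, its window was at −0.57 (log2; limma adjusted p = 0.00204). The no-motif call was lost without no-motif replicate 1 (limma adjusted p = 0.0520), and held without replicate 2 (limma adjusted p = 0.0340).

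The site +48 is one that NR5A2 shares with the construct without a motif. There NR5A2 was at 21.5% and 23.4% and the construct without a motif at 40.5% and 39.9%. NR5A2 ranked 3rd lowest of the 24 constructs with this site, whose median was 36.3%. At +29 it was at 32.1% and 34.5%, the 4th lowest of 20 constructs (median 44.8%). At +45 it was at 31.5% and 35.6%, the 8th lowest of 18 (median 35.2%). Its own level was alike at +29 and +45, while the medians come from different sets of constructs. Past the window NR5A2 was at 24.2% and 26.3% at position 164, where pool 9 medians were 26.6% and 30.9%.

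The flank of NR5A2 was 30.0% and 34.6%, or 32.3% ± 3.25 (SD, n = 2), and lower than without a motif, at −9.64 percentage points (log2 −0.59 ± 0.15, SE; limma adjusted p = 0.00125). This was the 1 flank of the 5 constructs called against the construct without a motif, where 23.1% of the class was called lower and 14.9% higher. The flank of RARA::RXRA_r, also of pool 9, was called lower too (35.4%, limma adjusted p = 0.0363). Against pool 9 the NR5A2 flank was lower, at −2.68 ± 0.120 percentage points (SD, n = 2) and did not pass (limma adjusted p = 0.119). Over the amplicon, NR5A2 at 39.7% ± 3.89 and RARA::RXRA at 39.5% ± 3.35 (SD, n = 2 each) were both lower than the 48.0% without a motif (limma adjusted p = 0.00312 and 0.00251). These were 2 of the 5 members, where 28.1% of 121 constructs were called, 24.8% lower and 3.31% higher. RARA::RXRA_r, of the same pool, was also called lower (40.5%; limma adjusted p = 0.00710). Against the pool 9 median both were within 1 percentage point, at −0.40 ± 0.441 and −0.61 ± 0.976 (SD, n = 2 each; limma adjusted p = 0.806 and 0.703). Without no-motif replicate 1 or 2 the flank call of NR5A2 was lost (limma adjusted p = 0.101 and 0.184), as were both amplicon calls (limma adjusted p = 0.216 and 0.395 for each construct). The low level of pool 9 moved with both no-motif calls, and its part in them was not tested.

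Upstream, NR5A2 stood apart from its pool at position 22, with 51.7% and 61.1% against medians of 43.8% and 54.3%. This was its largest gain and lay far from the window, but it did not pass the test of single sites (limma adjusted p = 0.135). Its lowest site relative to the pool, position 164 at −3.55 percentage points, did not pass either (limma adjusted p = 0.210).

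The window and flank of RARA and of RXRA::VDR did not pass against the pool or the construct without a motif. RARA had a window of 39.5% and 46.3% (42.9% ± 4.84, SD, n = 2) against pool 13 medians of 39.5% and 44.7%, since RARA itself was the median construct in replicate 1. RXRA::VDR was at 39.3% and 42.7% (41.0% ± 2.43, SD, n = 2). Their differences from the pool of 0.80 ± 1.13 and −1.13 ± 1.28 percentage points (SD, n = 2 each) did not pass (limma adjusted p = 0.849 and 0.735). Against the construct without a motif they differed by 0.83 and −1.09 percentage points and again did not pass (limma adjusted p = 0.779 and 0.599). For RARA the sign of the no-motif difference depended on its own libraries, being 0.24 without replicate 1 and −0.15 without replicate 2 (log2). For RXRA::VDR it was 0.0363 without replicate 1 and −0.165 without replicate 2 (log2). Each of these fits took its spread from the 2 no-motif libraries alone, so no p is given. At +48 RXRA::VDR was at 34.4% and 37.7%, close to the class median of 36.3% and above both NR5A2 libraries, which belong to another pool.

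Flanks of RARA were 40.5% and 45.7% and of RXRA::VDR 40.3% and 38.3%. In replicate 2 the constructs separated at position 164, with 38.8% for RARA and 30.5% for RXRA::VDR, and at position 187, with 33.4% and 24.4%. In replicate 1 the gaps at these sites were 2.21 and 1.97 percentage points in the same direction. Neither flank passed against the pool (1.78 ± 2.52 and −1.98 ± 2.60 percentage points, SD, n = 2 each; limma adjusted p = 0.473 and 0.439). Along the amplicon RXRA::VDR had 62.0% and 59.9% at position 101 and 31.9% and 30.5% at position 164. Its step of 29.7 ± 0.405 percentage points (SD, n = 2) was the 16th largest of 121 constructs, beside a class median of 23.1 and 28.5 ± 4.08 (SD, n = 2) without a motif. In its own pool the median steps were 29.5 and 26.0, against 30.02 and 29.4 for RXRA::VDR.

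RARA::RXRA, the composite motif of the retinoic acid receptor and its partner, had the highest window of the 5 relative to its pool. Its window was 36.3% and 38.9% (37.6% ± 1.83, SD, n = 2), above the pool 9 medians in both libraries by 3.09 ± 1.54 percentage points (SD, n = 2), and did not pass (limma adjusted p = 0.222). Against the construct without a motif the window was lower in both libraries, at −4.46 percentage points, and did not pass (limma adjusted p = 0.0656). The log2 difference was −0.19 without its replicate 1 and −0.34 without its replicate 2. Its flank, at 37.2% and 38.9%, was 3.13 ± 2.16 percentage points above the pool (SD, n = 2; limma adjusted p = 0.215). Against the construct without a motif the flank was at −3.83 percentage points (limma adjusted p = 0.240). It passed as lower with flanks of 60 bp (limma adjusted p = 0.0338). It also passed as lower with sites held by every construct, that is with position 101 alone (limma adjusted p = 0.0319). With flanks of 20 bp the difference was −0.0012 (log2; limma adjusted p = 0.992). Upstream it ran low, with 40.3% and 49.1% over the 9 upstream sites against pool medians of 44.0% and 51.4%, the 7th lowest upstream level of 122 constructs. Its lowest site relative to the pool was position 8, at 27.3% and 29.7% against medians of 31.8% and 38.7% (limma adjusted p = 0.161). At the far downstream position 243 it was at 25.8% and 26.7%, below medians of 29.2% and 31.1% (limma adjusted p = 0.161).

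RARA::RXRA also had a partner, RARA::RXRA_r, in the same pool, so this pair can be compared within a library. At the shared window site +28 the motif was at 39.6% and 45.5% and the partner at 36.0% and 46.2%. At +49 they were at 33.1% and 32.3% and at 26.1% and 33.1%. The motif was higher in replicate 1 and lower in replicate 2 at both sites, and also at positions 164 and 187. Over the shared window sites the log2 difference was 0.14 ± 0.23 (SE; limma adjusted p = 0.579), and over all window sites 0.08 ± 0.23 (SE; limma adjusted p = 0.780). Both fits left the libraries unpaired and gave all 14 pairs the same SE. Flanks of 38.1% ± 1.21 and 35.4% ± 5.76 (SD, n = 2 each) did not pass (limma adjusted p = 0.652).

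Single sites were tested against the median of the same position in the same pool and library. Of 1792 sites over all constructs, 0% (0 sites) were called by limma, and 422 (23.5%) had an unadjusted p under 0.05. For the 5 nuclear receptor constructs 72 sites could be tested and 0 were called, with 8 (11.1%) at an unadjusted p under 0.05, of which 3 belonged to ESRRB. Those were +31 at −7.42 percentage points, position 164 at −7.15 and position 187 at −6.89 (limma adjusted p = 0.135, 0.192 and 0.193). The smallest adjusted p among the 72 was 0.135 in limma. The count over all constructs depends on the reference, since 219 sites were called when a construct was left out of its own median.

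Ordered by window level, the constructs ran from NR5A2 through ESRRB, RARA::RXRA and RXRA::VDR to RARA. The library values of the first 4 did not overlap from one neighbour to the next, while those of RXRA::VDR and RARA did. How often constructs of the class overlap was not counted. These levels come from different window sites and from pools of different level. The median windows were 47.6% and 43.9% in pool 5, 32.1% and 36.9% in pool 9, and 39.5% and 44.7% in pool 13. Relative to their own pools the order was ESRRB, NR5A2, RXRA::VDR, RARA and RARA::RXRA. ESRRB and NR5A2 were lowest in both orders, a description of 5 constructs from 3 pools that was not tested. RARG, the retinoic acid receptor gamma motif, had a window mean under that of ESRRB and lay further below its pool than either. By flank level the order was the same as by window level, but ESRRB (35.9% to 38.4%) and RARA::RXRA (37.2% to 38.9%) overlapped, as did RARA::RXRA and RXRA::VDR (38.3% to 40.3%). None of the 5 was called higher at the flank, in the window or over the amplicon against pool, partner or the construct without a motif. Higher calls were also few in much of the class. Against the pool they made up 3.33% of flanks, 9.17% of windows and 4.17% of amplicons. Against the construct without a motif they made up 14.9%, 23.1% and 3.31%. Among the 14 pairs they made up 21.4%, 7.14% and 14.3%, and only 2 of the 5 members had a partner. The largest flank gain over the pool median in the class was 43.8 percentage points, for the REST motif, and the largest among the 5 was the 3.13 of RARA::RXRA.

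A list of nuclear receptor names held 7 constructs of the class, the 5 above with RARG and NR2C2, an orphan receptor that binds direct repeats. RARG had a window of 30.6% and 37.9% (34.2% ± 5.17, SD, n = 2) against pool 6 medians of 46.5% and 48.1%, and was called lower (log2 −0.77 ± 0.12, SE; limma adjusted p = 0.00212). It did not pass against the construct without a motif (limma adjusted p = 0.0617). NR2C2 went the other way, with a window of 47.8% and 50.2% that was called higher than without a motif (adjusted p = 0.0212 in limma) but was 0.70 ± 0.996 percentage points from its pool (SD, n = 2; limma adjusted p = 0.859). At +48 NR2C2 was at 46.8% and 49.3%, itself the median of the 3 constructs of pool 14 with this site. Both values were above the NR5A2 libraries, which belong to pool 9, so pool and construct cannot be told apart. The list's windows thus had 2 of 7 called lower and 0 higher against the pool, beside 17.5% and 9.17% of the class, with a median difference of −1.13 percentage points beside 0.06 over all 120 constructs. Its flanks had 0 of 7 called, beside 7.5% of the class, with a median of −1.98 beside −0.07 percentage points.

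The methylation profiles were also compared construct by construct, as the mean absolute difference over shared positions (12 to 15 in the comparisons named here). ESRRB was nearest to ATF1 at 1.74 percentage points, KLF4 at 1.84 and TCF3 at 1.91, beside a median of 5.32 over 121 constructs. NR5A2 was nearest to MEF2D at 2.11, TEAD1 of its own pool at 2.38 and TGIF1 at 2.81 (median 6.41). RARA was nearest to ELF3 at 1.47, POU5F1B at 1.53 and TCFL5 of its own pool at 1.81 (median 4.94). RARA::RXRA was nearest to SP3 at 1.82, MLX of its own pool at 1.94 and ZFP740 at 1.97 (median 7.66). RXRA::VDR was nearest to JUND at 2.37, NFAT5 at 2.56 and ATF4 at 2.63 (median 5.68). No nuclear receptor was among these nearest constructs. The list held 7 of the 122 constructs of the class, so its absence from the 3 nearest to each member says little. ESRRB and NR5A2 differed by 4.48 percentage points, which put NR5A2 49th among the 121 constructs ranked by likeness to ESRRB. The construct without a motif was 13th nearest to both RARA (2.55) and RXRA::VDR (3.60), 53rd to ESRRB (4.85), and 84th to both NR5A2 (8.36) and RARA::RXRA (9.53). Profiles share the backbone, and the constructs of a pool share a library.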

How the data were processed

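Per the labels' protocols, DNA was bisulfite converted and the amplicon was made by PCR, and a NEBNext kit was used for the libraries. Per the submitters' processing notes, trimming used Trimmomatic 0.32. What aligned the reads and called methylation, the build and any coverage filter are not given in the sources used here. Per position and construct, the authors deposited a methylated fraction with no coverage, so no interval or detection limit is given. Of 4226 values in the 36 unphased libraries, 4 were missing. Sites with a value in both libraries of a pool were averaged into a level f, and tests used log2((f + 0.01)/(1 − f + 0.01)) in limma 3.58.1 (R 4.3.3), two-sided, at an adjusted p under 0.05. Against the pool, differences within a library were tested. Against the construct without a motif (121 constructs) and the partner (14 pairs), 2 groups of libraries were compared. The no-motif flank and amplicon fits and the partner fits gave each construct the same SE (0.155 for no-motif flanks), so those calls rest on a shared spread. MAX::MYC, with identical values in 2 pools, was counted once. The fits were tested on simulated data with planted log2 shifts larger than any member difference given here. Recovery of shifts as small as those differences was not tested. The members, lists, window and flank were chosen with earlier results of these data known. Named constructs were the members, their partners, the construct without a motif, the list, the 3 constructs nearest to each member, and some pool neighbours. Sites named are those with the largest differences, at like positions or flanking the window, some chosen after their values were seen. Libraries of other contexts held no construct of these names and were not analysed here. No construct sequence was used here.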

Additional observations from a re-analysis of the deposited data

How the results depend on the processing

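Read counts were not used here, so counting error cannot be set beside these values, and 2 libraries a construct limit every test. Of 371 tested values of the nuclear receptor constructs under an alternative, 317 kept direction and side of the threshold, 19 newly passed, 14 no longer passed and 21 changed sign. In the pool comparison, leaving out 1 library gave 30 values with no test, of which 3 changed sign. These were the amplicon of RARA without replicate 1 (0.127 on the log2 scale), and those of RARA::RXRA (0.00507) and RXRA::VDR (0.0191) without replicate 2. Numbers of constructs called by limma depended on the reference. With each construct left out of its own pool median, amplicon calls went from 14 to 22, flank calls from 9 to 45 and window calls from 32 to 54. Against the pool mean they were 41, 51 and 60. Flank calls were 30 with flanks of 20 bp, 35 with 60 bp and 4 with sites held by every construct, that is with position 101 alone. Window calls were 51 on the fraction scale and 6 for the window from +31 to +48. Site calls went from 0 to 10 with robust moderation, to 219 with the median of the other constructs, and to 32 and 35 at positions held by at least 2 and 5 constructs. With a replicate block, calls against the construct without a motif were 21 for the amplicon (34 without the block) and 27 for the window (59), and flank calls against the partner were 8 (3). Of the members' calls the block ended none. With it the ESRRB flank passed against ESRRB_r (adjusted p = 0.0464 in limma), and with crossed pairing it did not (0.268). Along the positions, same-numbered libraries did not deviate together (r from −0.422 to 0.218 over 14 positions). Such a correlation does not see an offset shared by all positions, so it cannot tell whether the numbers pair libraries. Crossed pairing, added after seeing the data, left 0 flank calls against the construct without a motif. Setting levels relative to the pool median gave 8 flank calls against the partner. Where 1 library of a construct was left out, the no-motif fit took its spread from the 2 no-motif libraries alone. Leaving out 1 library gave 0 to 61 amplicon, 5 to 87 flank and 13 to 110 window calls against the construct without a motif, and 3 to 5 flank and 0 to 2 window calls against the partner. The calls of NR5A2 and RARA::RXRA over the amplicon were lost without no-motif replicate 1 (both adjusted p = 0.216 in limma) or 2 (both 0.395), and that of the NR5A2 flank likewise (0.101 and 0.184). Sign changes were among values that did not pass in the reported fit. On the log2 scale, the RXRA::VDR amplicon against the pool was 0.0157 with the median of the others, 0.0392 with the pool mean and 0.0449 without MAX::MYC, and RARA was 0.0224 and 0.0281 in the latter pair. The window of RXRA::VDR was 0.0716 against the pool mean and 0.0331 against the class at the same position, where RARA::RXRA was −0.0126. The RARA flank against the construct without a motif was −0.00146 at 60 bp and −0.00368 at sites held by every construct. Against the construct without a motif and without 1 library, the amplicon of RARA ran from −0.184 to 0.0647 and that of RXRA::VDR from −0.105 to 0.0188, the flank of RARA from −0.0848 to 0.216, and the windows of RARA from −0.152 to 0.244 and RXRA::VDR from −0.165 to 0.0363. Against the partner, the amplicon of ESRRB ran from −0.274 to 0.0245, and RARA::RXRA from −0.290 to 0.182 for the amplicon, −0.0819 to 0.422 for the flank and −0.176 to 0.342 for the window. The causes were not tested.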
